A study of Arabidopsis thaliana with 3 samples.

Results

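Lines #3 and #6 are independent insertions of one construct, *35S:SlHsfA3*, in which the tomato heat stress transcription factor gene *SlHsfA3* is driven by the constitutive cauliflower mosaic virus 35S promoter in *Arabidopsis thaliana* Col-0. The reads of line #3 were set directly against those of line #6, leaving Col-0 aside. A gene entered with 10 or more reads in either line, which held for 18648 of the 33602 genes in the table. Each side was 1 library, a pool of aerial parts from 20 T3 plants, 4 weeks old, that had seen no stress at 22°C and days of 16 h light with 8 h of darkness, and the untransformed Col-0 library, made the same way, served only as a description beside the lines. With 1 library a side there is no replicate check, so that no p-value is given and a difference between these pools cannot be told apart from a difference between the insertions. Each ratio carries a 95% exact (Clopper-Pearson) counting interval, which covers counting error only. Ratios were scaled by TMM, a trimmed mean of the gene ratios, and a gene counted as apart when its ratio was at least 2-fold.

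Heat stress transcription factors of class A bind heat shock elements and switch on genes for chaperones, among them the small heat shock proteins (Hsp), and AtHsfA3 acts in this cascade downstream of DREB2A. A 35S transgene is expressed at a level that depends on where it inserted and on how many copies are present, and independent insertions are compared to separate what follows from the construct from what belongs to 1 line. RNA from whole aerial parts mixes leaf, stem and, where plants have started to flower, flower tissue, and in such bulk samples fewer cells of a type and less RNA per cell cannot be told apart.

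The totals were 9968154 (Col-0), 11556077 (line #3) and 10786332 (line #6) reads in genes, and 3 counts given in a row below keep this order. Nuclear and organelle ribosomal RNA took 26.6%, 32.5% and 20.9% of them in the same order. The size of line #3 relative to line #6 was 0.938 by TMM and 1.07 by total reads, so that total reads moved every log2 ratio by -0.19. Where this changed the number of a list's genes past 2-fold, the count by total reads is given as well. *AtHsfA3* (AT5G03720) had 6 reads in line #3 and 4 in line #6 and was below the minimum, and the table has no entry for the tomato transgene. A count of 0 was put at 3 reads, and the ratio is then a lower bound.

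The lines were close for most genes. The ratio was within 1.5-fold for 16320 genes, 87.5% of those compared. At least 2-fold apart were 514 genes with line #3 higher (2.76%) and 241 with line #6 higher (1.29%), and with total reads as the scale these were 364 and 422, so the direction of the majority depended on the scale. Among the 14218 genes with at least 50 reads in one line the shares were 0.830% and 0.366%. The whole counting interval lay beyond 2-fold for 114 genes with line #3 higher (0.611%) and for 12 with line #6 higher (0.0644%), and at 50 reads or more for 0.324% and 0.0633% of genes. Of the 114, 22 were on the chloroplast or mitochondrial genome and 92 on nuclear chromosomes. Among these 92 nuclear genes, 68 had under 50 reads in line #3 and 44 had 0 in line #6, against 1 gene with at least 10 reads in line #6 and 0 in line #3, the non-coding RNA gene AT1G67105 with 12 reads.

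Few reads went with wide ratios. Among 542 genes with a mean of up to 10 reads, 27.5% were at least 2-fold higher in line #3 and 13.5% in line #6, and among 5391 genes with over 100 and up to 300 reads these shares were 0.427% and 0.260%. At the minimum itself, *CYP78A8* (AT1G01190) had 10 reads in line #3 and 2 in line #6 and was kept, as were 204 others whose higher line had exactly 10 reads. The zinc finger gene AT1G02030, with 3 and 9 reads, was left out with 203 others at 9 reads.

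**Figure D1:**
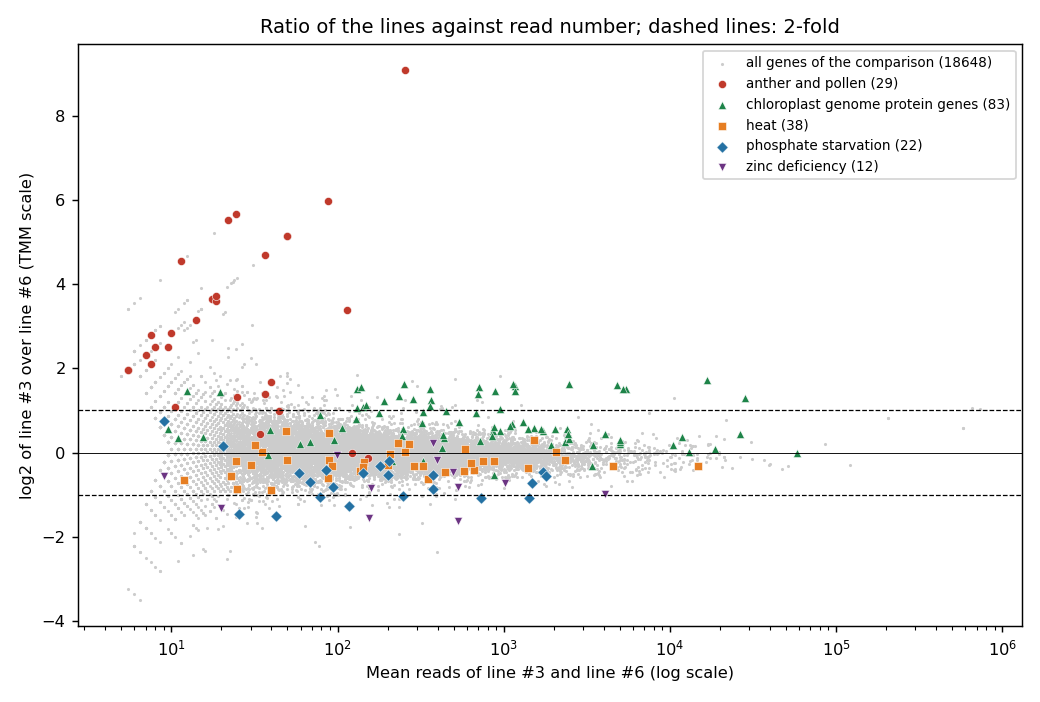
The log2 ratio of line #3 over line #6 on the TMM scale is plotted against the mean reads of the lines on a log axis, 1 point a gene, with 5 gene groups in color and dashed lines at 2-fold. Anther and pollen genes lie above the upper line for 25 of 29 points, 21 of which passed the minimum through line #3 alone. Chloroplast genome protein genes, without those of the RNA polymerase, lie above it for 27 of 83, and no heat gene lies beyond either line.

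The widest ratios were those of anther genes. The tapetum is the inner layer of the anther wall that feeds developing pollen, deposits the sporopollenin wall and finally coats the grain with lipids and proteins, among them the oleosin-like glycine-rich proteins (GRP). Of 16 genes of the pollen coat and late tapetum, 13 had enough reads, 12 of them at least 2-fold higher in line #3, or 11 by total reads, and none in line #6. Of 22 early tapetum and sporopollenin genes, 14 had enough reads. Of these, 11 were at least 2-fold higher in line #3 and none in line #6, beside 2.76% and 1.29% of all genes. These counts are a description and not support for a direction, since 11 of the 13 and 8 of the 14 had under 10 reads in line #6 and passed the minimum through line #3 alone, which fixed their direction. No member passed through line #6 alone. Of the 8 members with at least 10 reads in both lines, 4 were at least 2-fold higher in line #3.

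The GRP genes *GRP14*, *GRP18*, *GRP17*, *GRP16*, *GRP19* and *GRP20* lie side by side on chromosome 5 (AT5G07510 to AT5G07560) and were all at least 2-fold higher in line #3. *GRP17*, a major pollen coat protein, had 56 (Col-0), 506 (line #3) and 1 (line #6) reads, a ratio of 539 (95% interval 96.4 to 21346). *GRP19* had 19, 100 and 0 reads, at least 35.5-fold higher in line #3. *GRP14* had 9, 48 and 1 reads, with a ratio of 51.2 (8.75 to 2063). Across the cluster, the read counts in line #6 were 0, 1 or 2, and Col-0 lay below line #3 for every gene.

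A further run of neighbors on chromosome 1 held the extracellular lipase genes *EXL4* (AT1G75910) and *EXL6* (AT1G75930), whose products sit in the pollen coat, and *ATA27* (AT1G75940), an anther beta-glucosidase gene. *EXL4* had 33 (Col-0), 99 (line #3) and 0 (line #6) reads, and *EXL6* had 3, 35 and 0. *ATA27* had 73, 176 and 0 reads, at least 62.5-fold higher in line #3. Their relative *EXL3* (AT1G75900), next to *EXL4*, differed least in the list, with 145, 141 and 163 reads, a ratio of 0.922 (0.731 to 1.16). *ATA20* (AT3G15400), an anther gene that still gave reads in line #6, had 61, 206 and 21 reads and a ratio of 10.5 (6.66 to 17.3).

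Among genes of the early tapetum and of sporopollenin, the glucanase gene *A6* (AT4G14080), whose product dissolves callose around the tetrads, had 45 (Col-0), 73 (line #3) and 0 (line #6) reads, at least 25.9-fold higher in line #3. *ACOS5* (AT1G62940), the acyl-CoA synthetase that starts sporopollenin synthesis, had 7, 22 and 1 reads, a ratio of 23.45 (3.79 to 968). *LTP12* (AT3G51590), a tapetum lipid transfer protein gene, had 22, 34 and 3 reads, a ratio of 12.1 (3.80 to 61.5). *QRT3* (AT4G20050), a polygalacturonase that frees the grains of a tetrad, had 9, 25 and 3 reads with a ratio of 8.88 (2.71 to 46.0). In all 4 genes Col-0 lay between the lines. *TPD1* (AT4G24972), which specifies tapetal fate, had 129, 118 and 127 reads, a ratio of 0.990 (0.764 to 1.28).

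Pollen itself left fewer reads. Of 14 mature pollen genes, 12 were below the minimum. The pectin methylesterase genes *VGD1* (AT2G47040), with 5 (Col-0), 20 (line #3) and 0 (line #6) reads, and *PPME1* (AT1G69940), with 0, 11 and 0, were at least 7.11-fold and 3.91-fold higher in line #3. Both passed the minimum through line #3 alone, which fixed their direction. Another nuclear run held 3 genes of unknown function with the DUF1216 domain on chromosome 3, AT3G28780, AT3G28790 and AT3G28830, with 14, 29 and 30 reads in line #3, 0 in line #6, and 0 to 3 in Col-0. Runs were at least 3 genes at least 2-fold apart in the same direction and next to each other in the order of the genes compared. There were 8 in all, 5 of them on the chloroplast genome, and none had line #6 higher. In the 3 nuclear runs, that of the DUF1216 genes included, every gene passed the minimum through line #3 alone. This fixed the direction of those runs, so that their count is a description only.

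**Figure D2:**
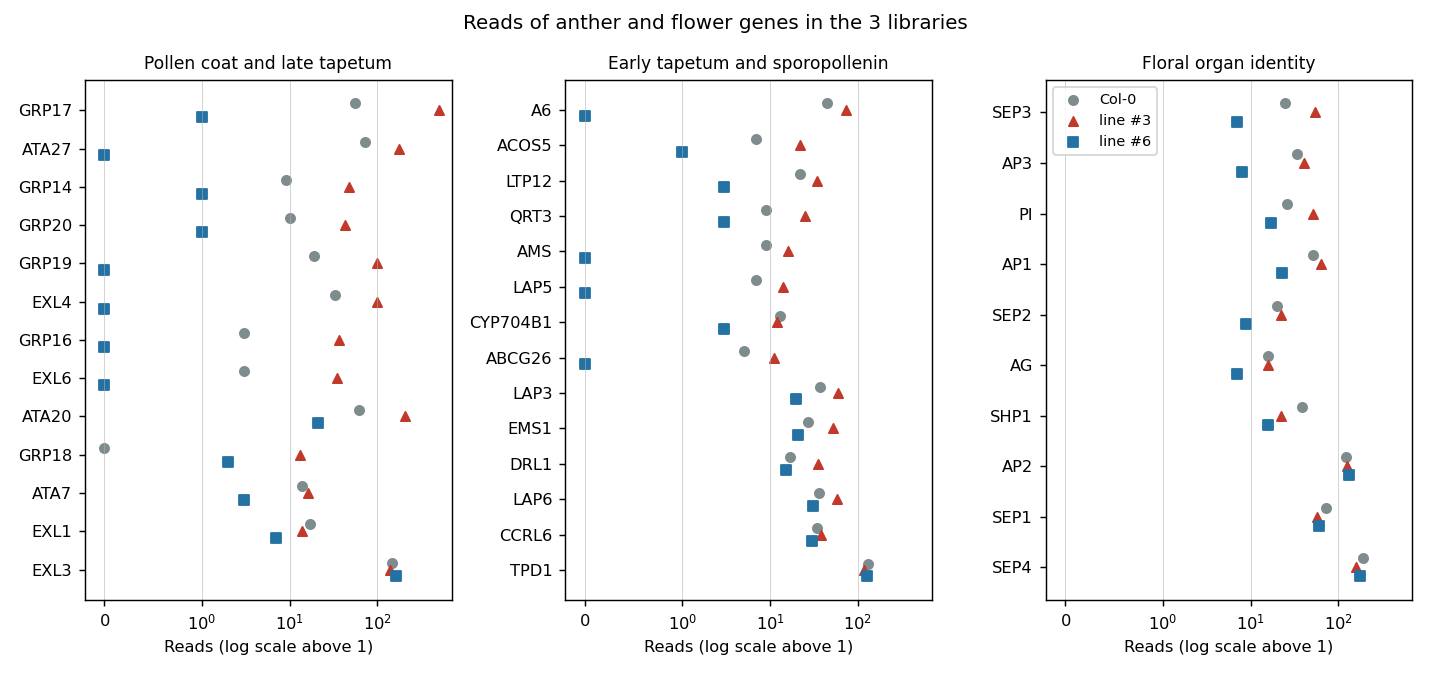
Reads of each gene in Col-0 (circle), line #3 (triangle) and line #6 (square) are plotted on an axis that is linear below 1 read and logarithmic above, for 3 lists. Line #6 is at 0 for 5 of the 13 pollen coat genes and 4 of the 14 early tapetum genes, whereas *EXL3*, *TPD1*, *AP2*, *SEP1* and *SEP4* lie close together in all 3 libraries.

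Floral organ identity genes encode the transcription factors, mostly MADS-domain proteins, that specify sepal, petal, stamen and carpel. Of 15 such genes 10 had enough reads. Of these, 6 were at least 2-fold higher in line #3 and none in line #6, beside 2.76% and 1.29% of all genes. Of these 6, 4 passed the minimum through line #3 alone, and of the 6 members with at least 10 reads in both lines 2 were past 2-fold, *PI* and *AP1*. *SEP3* (AT1G24260), a cofactor of the other organ identity factors, had 25 (Col-0), 54 (line #3) and 7 (line #6) reads, a ratio of 8.22 (3.73 to 21.4). *AP3* (AT3G54340), needed for petals and stamens, had 34, 41 and 8 reads and a ratio of 5.46 (2.53 to 13.5). Its partner *PI* (AT5G20240) had 26, 51 and 17 reads, and *AP1* (AT1G69120), which specifies the flower meristem and sepals, had 51, 64 and 23, with ratios of 3.20 (1.82 to 5.91) and 2.97 (1.82 to 5.01). For these 4 genes Col-0 lay between the lines.

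The other members split. *SEP2* (AT3G02310) had 20, 22 and 9 reads and *AG* (AT4G18960), which specifies stamens and carpels, 16, 16 and 7, with ratios of 2.61 and 2.44 and an interval that reached 0.948 for *AG*. *SHP1* (AT3G58780), a carpel gene, had 39, 22 and 16 reads, a ratio of 1.47 (0.735 to 2.99). *AP2* (AT4G36920), *SEP1* (AT5G15800) and *SEP4* (AT2G03710), the members with most reads, had ratios of 1.02, 1.01 and 0.981, with intervals that lay between 0.692 and 1.48. Genes that control the floral transition differed less: none of 9 promoters of flowering was 2-fold apart, with *SPL5* (AT3G15270) nearest at 74 and 40 reads, and of 12 repressors 2 were, *MAF4* (AT5G65070) with 15 and 6 reads and *TFL1* (AT5G03840) with 12 and 6, both with an interval that held equality and both through line #3 alone. By total reads 1 repressor was. The repressor *MAF5* (AT5G65080) had 64 and 74 reads in the lines and 4 in Col-0.

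Summed over all 52 genes of the pollen coat, tapetum and pollen lists, the level was 96.7 CPM (reads per 1000000) for Col-0, 193 CPM for line #3 and 41.7 CPM for line #6. This sum takes in the 23 genes below the minimum. The labels give the tissue as aerial parts and do not say how far the plants had flowered. The study reports late flowering of both lines against Col-0, but not how far the plants of these pools had flowered. Whether the anther genes follow the flower content of the pools was not tested. Seed and root lists had 1 measurable member each, neither of them 2-fold apart. The 22 nuclear genes for light-harvesting proteins and the Rubisco small subunit, which mark leaf, lay within 1.5-fold between the lines without exception, with a median log2 ratio of 0.19 on the TMM scale and 0.00 by total reads.

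Of the 92 nuclear genes whose interval lay beyond 2-fold with line #3 higher, 71 were outside the anther, pollen and flower lists, and 53 of these 71 passed the minimum through line #3 alone. Line #3 exceeded Col-0 for 89 of the 92, a description only, since these genes were chosen for being high in line #3. Among annotation classes, the 71 held 4 of 92 pectin lyases and pectin methylesterases, 4 of 56 lipid transfer proteins and 3 of 33 class III peroxidases. With the anther, pollen and flower lists kept in, the interval rule held for 7, 5 and 3 of these classes, beside 0.611% of all genes. AT1G20130, a GDSL-type lipase gene, had 27 (Col-0), 62 (line #3) and 0 (line #6) reads, at least 22.0-fold higher in line #3. AT1G68875, of unknown function, had 33, 50 and 0 reads, at least 17.77-fold higher, and the phytocystatin gene *CYS2* (AT2G31980) had 7, 52 and 13, a ratio of 4.26 (2.29 to 8.54). Others of the 92, named after their values were seen, have roles outside the anther. They include *BSMT1* (AT3G11480), which makes methyl salicylate and methyl benzoate, with 8, 49 and 11 reads, and *NRT1.8* (AT4G21680), which retrieves nitrate from the xylem, with 33, 140 and 52.

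**Figure D3:**
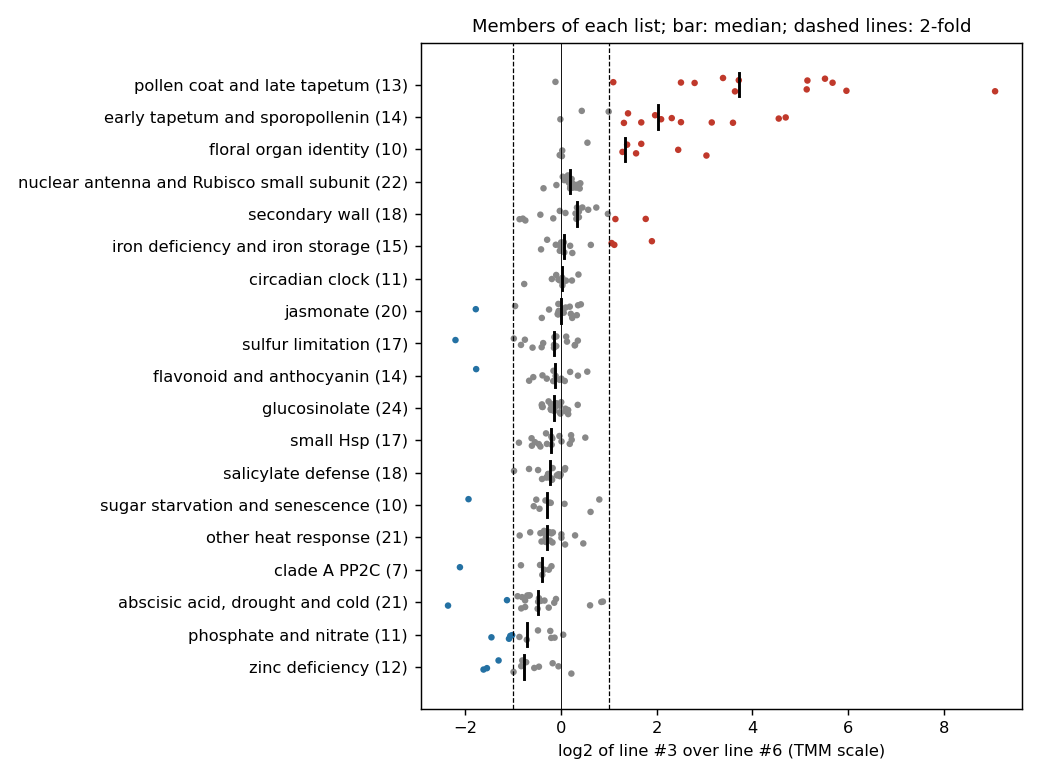
Each point is the log2 ratio of line #3 over line #6 on the TMM scale for 1 gene, by list, with the number of genes in parentheses, a bar at the median and dashed lines at 2-fold. The zinc deficiency list has a median of -0.77, the heat lists have no point beyond 2-fold, and 11 of the 13 pollen coat points passed the minimum through line #3 alone.

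The genes of the heat response were close between the lines, as most genes were. Of 42 heat genes 38 had enough reads. None was at least 2-fold higher in line #3 or in line #6, beside 2.76% and 1.29% of all genes. Within 1.5-fold lay 33 of the 38, beside 87.5% of all genes, and the median log2 ratio was -0.27. Line #6 was the higher line for 28 of the 38. *Hsp70* (AT3G12580), the member with most reads, had 3541 (Col-0), 12641 (line #3) and 16696 (line #6) reads, a ratio of line #6 to line #3 of 1.24 (1.21 to 1.27). *EGY3* (AT1G17870), for a predicted chloroplast metalloprotease, had 124, 1191 and 1624 reads and the ascorbate peroxidase gene *APX2* (AT3G09640) 1, 121 and 164, with ratios of line #6 to line #3 of 1.28 (1.19 to 1.38) and 1.27 (0.999 to 1.62).

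Within the small Hsp list the log2 ratios ran from -0.88 to 0.51. *Hsp18.1-CI* (AT5G59720), a cytosolic small Hsp gene, had 11 (Col-0), 27 (line #3) and 53 (line #6) reads, 1.84-fold higher in line #6 (1.14 to 3.04). The chloroplast *Hsp25.3-P* (AT4G27670) stood at the other end with 0, 56 and 42 reads, a ratio of line #3 to line #6 of 1.42 (0.936 to 2.17). With total reads as the scale, 2 heat genes were at least 2-fold higher in line #6.

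Most genes of zinc and phosphate supply were higher in line #6. Plants low in zinc raise uptake transporters of the ZIP family and nicotianamine synthases (NAS), which make a metal chelator, through the factors bZIP19 and bZIP23, which bind the palindrome TGTCGACA. Of 12 such genes measured, a list drawn up after the values were seen, 3 were at least 2-fold higher in line #6 and none in line #3. The shares over all genes were 1.29% and 2.76%. Of the 12, 11 were higher in line #6 at all, with a median log2 ratio of -0.77 beside 0.00 over all genes. *ZIP9* (AT4G33020) had 582 (Col-0), 248 (line #3) and 813 (line #6) reads, 3.08-fold higher in line #6 (2.66 to 3.56). *NAS2* (AT5G56080) had 321, 75 and 234 reads, 2.93-fold higher in line #6 (2.25 to 3.85). *ZIP3* (AT2G32270) had 44, 11 and 29, 2.47-fold higher (1.199 to 5.49). In these 3 genes line #3 was the library that stood lowest.

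*ZIP4* (AT1G10970), the list's member with most reads, had 3458, 2592 and 5499 reads and fell just short at 1.99-fold (1.90 to 2.09), and with total reads 6 of the list were past 2-fold. The factor genes *BZIP19* and *BZIP23* lay near equality, and *HMA2* (AT4G30110), a zinc exporter, was the single member with line #3 higher, at 390 and 358 reads. In the 500 bases before the gene start the palindrome was found in 2 of the 12 genes and in 0.527% of 18419 genes of the comparison. The window of *ZIP4* at chr1:3667160-3667189 of TAIR10.1 (minus strand, palindrome in capitals) shows it 39 bases before the start:
ZIP4: taacgcgaaaaTGTCGACAtatttggctaa
None of the 3 genes past 2-fold held it in this window.

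**Figure D4:**
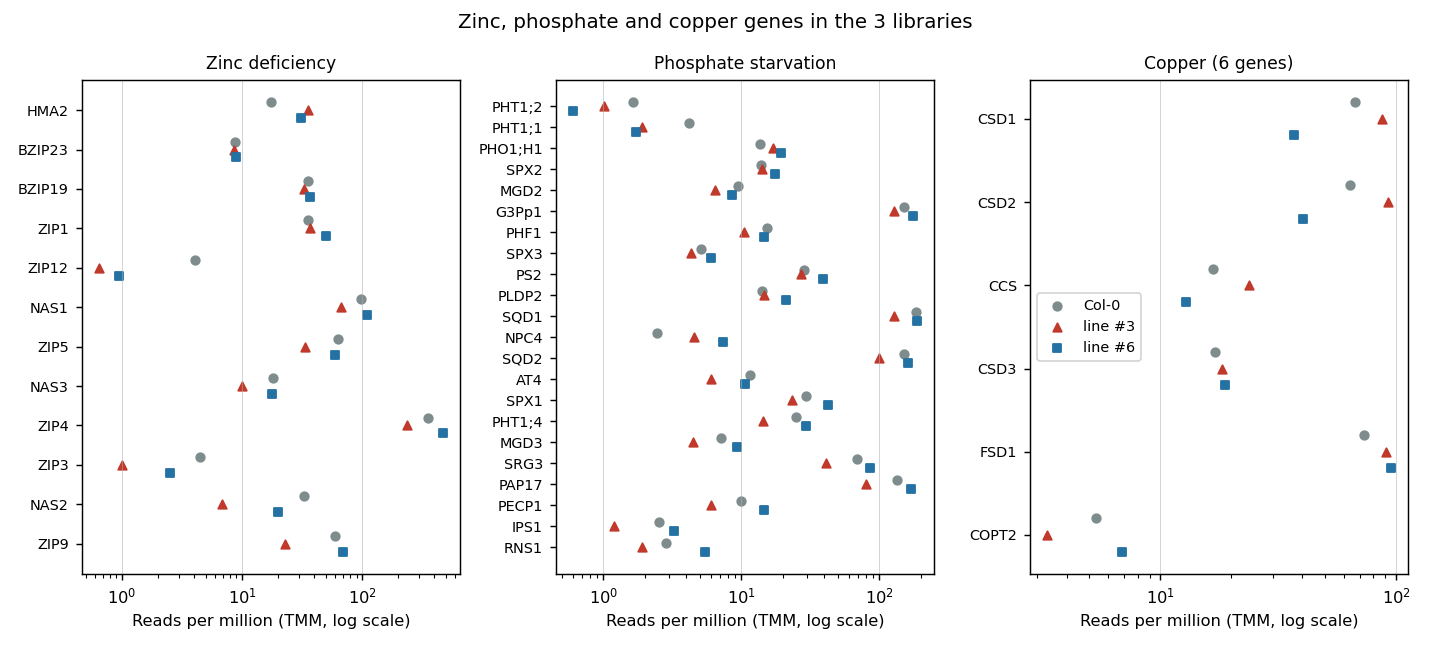
Levels in CPM on a log axis (TMM over 3 libraries) are plotted for Col-0 (circle), line #3 (triangle) and line #6 (square) in genes of zinc, phosphate and copper supply, 1 library each. For *ZIP9*, *NAS2*, *PECP1* and *PAP17* line #3 is the lowest of the 3 libraries, and for *CSD1* and *CSD2* line #6 is.

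Low phosphate switches on phosphatases, phosphate transporters and enzymes that replace phospholipids, through PHR1, which binds P1BS (GNATATNC). Of 22 such genes measured, a list also widened after the values were seen, 7 were at least 2-fold higher in line #6 and none in line #3. The shares over all genes were 1.29% and 2.76%. Of the 22, 20 were higher in line #6 at all, with a median log2 ratio of -0.63. By total reads 8 were past 2-fold. The shorter list of phosphate and nitrate genes had 4 of 11 at least 2-fold higher in line #6, or 5 by total reads, and none in line #3. Its median log2 ratio was -0.715. Its nitrate genes *NIA1*, *NIA2* and *NIR1* were nearer equality, with log2 ratios of -0.225, -0.135 and 0.045. The ribonuclease gene *RNS1* (AT2G02990) had 28 (Col-0), 21 (line #3) and 64 (line #6) reads, 2.86-fold higher in line #6 (1.72 to 4.93). The non-coding *IPS1* (AT3G09922), which sequesters miR399, had 25, 13 and 38 reads, 2.74-fold higher (1.43 to 5.61). *PECP1* (AT1G17710), a phosphoethanolamine and phosphocholine phosphatase, had 97, 66 and 170, 2.42-fold higher (1.81 to 3.26). All intervals here reached below 2-fold, so that none of the 7 met the stricter rule.

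The acid phosphatase gene *PAP17* (AT3G17790) carried the most reads of the 7, with 1306, 872 and 1977 and a ratio of line #6 to line #3 of 2.13 (1.96 to 2.31). *SRG3* (AT3G02040), a glycerophosphodiester phosphodiesterase, had 680, 448 and 1005 reads, 2.104-fold higher in line #6 (1.88 to 2.36). *MGD3* (AT2G11810), for galactolipids, and the transporter *PHT1;4* (AT2G38940) were 2.09-fold and 2.03-fold higher. *SQD2* (AT5G01220), for sulfolipids, had 1477, 1081 and 1892 reads, 1.64-fold higher (1.52 to 1.77). In each of these Col-0 stood between the lines.

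P1BS was found, on either strand, in the 500 bases before the start of 10 of the 22 genes (45.5%) and of 10.6% of all 18419, and in 2 of the 7 genes past 2-fold. The sequences below are from the strand of the gene in TAIR10.1, with the motif in capitals, at chr1:6092371-6092400 for *PECP1*, chr3:350055-350084 for *SRG3* and chr5:90439-90468 for *SQD2*, all on the minus strand. *PECP1* and *SRG3* are shown as the genes both past 2-fold and with the motif, and *SQD2*, at 1.64-fold, as the member with a match and the most reads:
PECP1: ataaataggtgGAATATTCtttttttttat
SRG3: ggcgatccaaaGAATATTCcaagatcccat
SQD2: ttatgtgaagcGAATATTCattggaataga
Other matches had other letters at the open positions, such as GTATATGC, 1 of the 4 matches of *SRG3*. A match describes the letters only.

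Most genes of abscisic acid, drought and cold were higher in line #6 too, few of them past 2-fold. Of 21 measured, 2 were at least 2-fold higher in line #6, or 5 by total reads, and none in line #3, beside 1.29% of all genes on the TMM scale. In all 18 were higher in line #6, with a median log2 ratio of -0.49. The 2 were *DR4* (AT1G73330), a protease inhibitor gene lowered by drought, and *LEA4-5* (AT5G06760), a desiccation protein gene. *LEA4-5* had 29 (Col-0), 18 (line #3) and 42 (line #6) reads, 2.19-fold higher in line #6 (1.23 to 4.04). As a gene lowered by drought, *DR4* does not count with drought-raised members such as *LEA4-5*. It was the 1 member of the list with its whole interval beyond 2-fold. All 7 clade A protein phosphatase 2C genes, which hold back abscisic acid signaling, were higher in line #6. *HAI1* (AT5G59220) had 111, 106 and 202 reads, 1.79-fold higher (1.41 to 2.28), and *HAI2* (AT1G07430) was the single one past 2-fold, with 4.33-fold (2.82 to 6.90), whereas by total reads 2 were. *COR47* (AT1G20440) and *ERD10* (AT1G20450), dehydrin genes, were 1.68-fold and 1.63-fold higher. The cold genes *COR15A* (AT2G42540), with 74 reads in line #3 and 43 in line #6, and *KIN1* (AT5G15960), with 37 and 22, had the opposite direction.

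With at least 50 reads in one line and the whole interval beyond 2-fold, 9 genes were higher in line #6, from *DR4* at 5.14-fold to *NAS2*. *SAG29* (AT5G13170), a sugar transporter gene of senescence, had 27 (Col-0), 28 (line #3) and 100 (line #6) reads, 3.35-fold higher in line #6 (2.18 to 5.29). *MYB90* (AT1G66390), an activator of anthocyanin synthesis, had 107, 51 and 186 reads, 3.42-fold higher (2.50 to 4.76), while none of the other 13 flavonoid genes was 2-fold apart. *LTP4* (AT5G59310), a lipid transfer protein gene induced by abscisic acid, had 606, 147 and 502, 3.20-fold higher (2.66 to 3.88). *LSU1*, a gene of the sulfur list, and *PYD4*, of the sugar starvation and senescence list, were 4.62-fold and 3.82-fold higher. The other 16 sulfur genes were not 2-fold apart, although by total reads 3 of the 17 were past 2-fold. Of 10 sugar starvation and senescence genes *PYD4* alone was past 2-fold, with 7 of the 10 higher in line #6 and 3 in line #3. Of the 12 genes of the interval rule Col-0 lay between the lines for 8 and at or above both for 4.

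Other response lists were nearly level. Salicylate defense had none of 18 genes 2-fold apart, with 16 higher in line #6, among them *PR1* (AT2G14610), the classic marker, at 4391 and 7444 reads and 1.59-fold, and by total reads 1 was past 2-fold. None of 24 glucosinolate and none of 11 clock genes was 2-fold apart. Of 20 jasmonate genes only *THI2.1* (AT1G72260), an antimicrobial thionin gene that passed the minimum through line #6 alone, was, with 63 (Col-0), 6 (line #3) and 22 (line #6) reads, and by total reads 2 were. Of the iron genes, 3 of 15 were at least 2-fold higher in line #3, or 1 by total reads, and none in line #6. The shares over all genes were 2.76% and 1.29%. None of the 15 had its whole interval beyond 2-fold, and *BHLH39* passed the minimum through line #3 alone. The 3 were the bHLH regulator genes *BHLH38* (AT3G56970) with 138, 67 and 33 reads, *BHLH39* (AT3G56980) with 65, 28 and 8 and *BHLH100* (AT2G41240) with 99, 41 and 21. They had ratios of line #3 to line #6 of 2.16, 3.73 and 2.08, and Col-0 was above both lines. A further bHLH gene, *BHLH101* (AT5G04150), leaned to line #3 short of 2-fold, with a log2 ratio of 0.62. Log2 ratios were 0.00 for *PYE* (AT3G47640), 0.07 for *BTS* (AT3G18290) and -0.42, toward line #6, for *IMA1* (AT1G47400).

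The copper/zinc superoxide dismutase genes, which remove superoxide, were higher in line #3. *CSD1* (AT1G08830), cytosolic, had 652 (Col-0), 956 (line #3) and 431 (line #6) reads, a ratio of 2.36 (2.11 to 2.66). *CSD2* (AT2G28190), in the chloroplast, had 622, 1013 and 468, a ratio of 2.31 (2.07 to 2.58). *CCS* (AT1G12520), the chaperone that loads both with copper, had 163, 259 and 150 reads, a ratio of 1.84 (1.499 to 2.27). Col-0 lay between the lines, and *CSD3* (AT5G18100), with 200 and 219 reads, and the iron enzyme gene *FSD1* (AT4G25100), with 994 and 1109, did not go with them. These genes and the copper list were chosen after their values were seen, and of its 21 measured members *CSD1* and *CSD2* were past 2-fold toward line #3 and the copper transporter gene *COPT2* (AT3G46900), with 36 and 80 reads, toward line #6, where by total reads 3 stood.

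In *Arabidopsis* *CSD1*, *CSD2* and *CCS* are targets of miR398, which rises when copper is short. The mature 3p sequences from the RefSeq annotation of TAIR10.1, as DNA letters with bases 2 to 8 in capitals, are given first, then the best 21-base match to miR398a-3p in each transcript, with complementary positions in capitals:
miR398a-3p: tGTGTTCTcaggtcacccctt
miR398b-3p and miR398c-3p: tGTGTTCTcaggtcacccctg
CSD1 site: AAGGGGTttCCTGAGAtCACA
CCS site: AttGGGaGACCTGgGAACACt
CSD2 site: tgcGGGTGACCTGgGAAacat
The *CSD1* site, in the 5′ UTR across an intron (chr1:2827177-2827685, plus strand), left 3 positions unpaired. The *CCS* site (chr1:4267521-4267541, minus strand) left 5 and the *CSD2* site (chr2:12015572-12015592, plus strand) 8, both in coding sequence. In *FSD1*, which is not a known target, the best match left 6, so this letter count alone does not single out *CSD2*. Mature miR398 was not measured, and reads of its precursor gene *MIR398C* were 117 (Col-0), 123 (line #3) and 147 (line #6), a ratio of line #3 to line #6 of 0.892 (0.696 to 1.14).

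Genes of the chloroplast genome were higher in line #3 as a block, at far more reads per gene. This genome encodes core subunits of the photosystems, the cytochrome b6f complex, ATP synthase and the NADH dehydrogenase-like complex, the Rubisco large subunit, and part of the ribosome and RNA polymerase, often in operons whose genes are transcribed together. Of its 83 protein genes with enough reads, counted without RNA polymerase genes, 27 were at least 2-fold higher in line #3, or 22 by total reads. None was in line #6, and the shares over all genes were 2.76% and 1.29%. Of the 83, 19 had the whole interval beyond 2-fold, and the median log2 ratio was 0.56. Of the 4 RNA polymerase genes 3 were at least 2-fold higher in line #3, or 1 by total reads. Chloroplast and other transcripts without a long poly(A) tail pass into a library only in part when RNA is purified by poly(A), as it was here. The share of reads in ribosomal RNA moved in the same direction, and the part of this in the chloroplast values was not tested.

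The block was uneven. The Rubisco large subunit gene (ATCG00490) had 11836 (Col-0), 25465 (line #3) and 8175 (line #6) reads, a ratio of 3.32. The ATP synthase beta subunit gene next to it (ATCG00480) had 51701, 55533 and 60073 reads and a log2 ratio of -0.02, and the epsilon gene (ATCG00470) 14078, 12772 and 13423 and 0.02. The alpha subunit gene (ATCG00120), at another place of the genome, had 1668, 3664 and 1261 reads and a log2 ratio of 1.63. Subunits of a single complex thus differed by more than 3-fold in their ratios, although counting error at such depth is small.

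Some neighbors were alike and others were not. From the photosystem II reaction center gene B (ATCG00680), with 3403, 7095 and 2492 reads, to the cytochrome b6f gene ATCG00730, with 949, 1698 and 583, all 6 genes had log2 ratios between 1.46 and 1.63. The photosystem I genes for PsaA and PsaB (ATCG00350 and ATCG00340) had 7597 and 7912 reads in line #3 and 2838 and 2967 in line #6, with log2 ratios of 1.51 and 1.51, while ATCG00330 beside them stood at 0.74. From ATCG00580 through ATCG00570 and ATCG00560 to ATCG00550, small photosystem II subunits, the log2 ratios went 1.57, 0.90, 0.26 and 0.21. From ATCG00120 to ATCG00160 they lay between 0.55 and 1.63. Ribosomal protein genes stood lower, with 1 of 25 past 2-fold and a median log2 ratio of 0.45. Photosystem II genes were spread widely, reaction center protein A (ATCG00020) with 29821, 39259 and 17155 reads and a log2 ratio of 1.29, protein D (ATCG00270) with 16421, 18712 and 18672 and 0.10, and protein M (ATCG00220) with 1879, 687 and 1068 and -0.54. In protein M both lines were below Col-0.

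**Figure D5:**
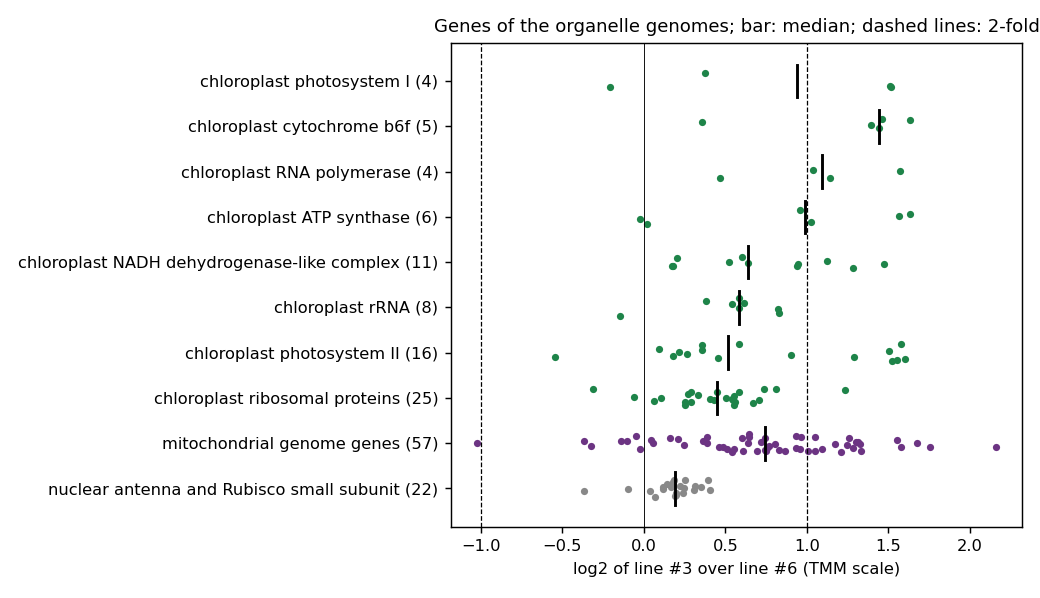
Log2 ratios of line #3 over line #6 on the TMM scale are plotted for chloroplast genes by complex, mitochondrial genome genes, and nuclear genes for antenna proteins and the Rubisco small subunit, 1 point a gene, with a bar at the median. Cytochrome b6f genes have a median of 1.44 and the nuclear genes 0.19, and the ATP synthase and photosystem II rows spread from about zero or below to over 1.5.

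Ribosomal RNA was also higher in line #3. The nuclear 18S-type entries AT2G01010 and AT3G41768 had 873125 and 962503 reads in line #3 against 450180 and 496650 in line #6, each with a ratio of 2.07 on the TMM scale. Of 15 ribosomal RNA genes 4 were past 2-fold on this scale and 1 by total reads. None of 8 chloroplast ribosomal RNA entries was past 2-fold, with a median log2 ratio of 0.58. Of 57 mitochondrial genome genes with enough reads 18 were at least 2-fold higher in line #3, or 13 by total reads, and 1 in line #6. The shares over all genes on the TMM scale were 2.76% and 1.29%. Of the 18 mitochondrial genes, 7 passed the minimum through line #3 alone. Cytochrome oxidase subunit gene ATMG01360 had 243, 353 and 159 reads, a ratio of 2.37 (1.96 to 2.87). ATMG00280 and the nuclear AT2G07732, both annotated as Rubisco large chain, had ratios of 3.37 and 3.51 beside 3.32 for the chloroplast gene. Of AT2G07732, 11 of 641 stretches of 100 bases occur unchanged in the chloroplast genome of TAIR10.1, and of AT2G07688, with a ratio of 2.93, 0 of 294 do. Whether reads were shared between such copies was not tested, and these counts are uncertain.

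Col-0 took no part in choosing the genes, and it lay between the lines for 375 of the 514 genes higher in line #3 and for 152 of the 241 higher in line #6. Of the 514 it was nearer to line #3 for 252 and to line #6 for 262 on the log2 scale. Of the 241 it was nearer to line #6 for 152. For these counts too, 0 reads were put at 3, which is 0.307 CPM in Col-0 and 0.258 CPM in line #6. A gene with 0 reads in both of these, such as *PPME1*, was therefore counted with Col-0 between the lines. So was *GRP18*, with 0 reads in Col-0 and 2 in line #6. The 375, 252 and 262 thus rest in part on the value put for 0, and how far was not tested.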

How the data were processed

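RNA was purified by poly(A), and libraries were sequenced as single pools, 1 each for Col-0, line #3 and line #6. The authors deposited counts of reads per TAIR10 gene, named with CASAVA 1.7 in the submitters' processing notes, with aligner and counter not given in the sources used here. Deposited fold (ratio), log2 and p-value or q-value columns hold the authors' own comparisons against Col-0 and were not used. Missing counts were read as 0.

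Genes with at least 10 reads in line #3 or line #6 were kept (18648 of 33602). Ratios were scaled by TMM (edgeR 4.0.16 in R 4.3.3, no test) over the 2 lines, and levels in CPM by TMM over the 3 libraries. Intervals are exact Clopper-Pearson at 95%, from SciPy 1.17.1 (Python 3.11.15, NumPy 2.4.6, pandas 2.3.3, matplotlib 3.10.9), and were tested on simulated data. Alternatives were scaling by median ratio, by total reads and without ribosomal RNA and organelle genes, other minimum reads and folds, Wilson intervals, and 0.5 for a count of 0. With 1 library a side no gene was tested.

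Named genes were the 10 widest ratios in each direction with at least 50 reads and an interval beyond 2-fold, up to 4 members of each list past 2-fold (otherwise the 2 with most reads), members of the leading short lists, runs of neighbors, the genes at the minimum, and the heat genes. Members and lists were chosen with earlier results of these data known. The zinc, copper and wider phosphate lists, the chloroplast groups and genes outside the rule, such as *EXL3*, *TPD1*, *CSD1*, *CSD2* and *BSMT1*, were chosen after their values were seen. Sequences and gene starts come from RefSeq's TAIR10.1, where 32835 genes of the table had an entry with their locus, and the table names TAIR10 and gives no coordinates.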

Additional observations from a re-analysis of the deposited data

How the results depend on the processing

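The counts of genes depended on the minimum and on the scale. In the order line #3 higher and line #6 higher, the genes at least 2-fold apart, 514 and 241, became 1618 and 1158 with at least 1 read in one line, 228 and 91 with 10 reads in both, and 118 and 52 with at least 50 reads in one. A fold of 1.5 gave 1413 and 915, a fold of 3 gave 189 and 70, and a fold of 4 gave 107 and 28. Total reads gave 364 and 422, and total reads without ribosomal RNA and organelle genes 575 and 208. Median ratio scaling gave 514 and 241. For the interval rule, 114 and 12 genes became 41 and 9 with at least 10 reads in both lines, 46 and 9 with at least 50 in one, and 94 and 28 by total reads.

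Of 591 genes with written values, 184 were past 2-fold. By total reads 21 of these fell short and 17 others passed, and without ribosomal RNA and organelle genes 2 fell short and 9 passed. Each scale shifts every log2 ratio by the same amount. By total reads, 11 of 58 list and class medians changed sign, all within 0.19 of 0 on the log2 scale, such as cytosolic ribosomal proteins from 0.19 to -0.00. Under 50 reads, depth limits a ratio to a wide interval. No paired analysis was possible because each line had 1 library, and for the same reason no replicate could be left out.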

Other observations

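Genes of the secondary wall went both ways. Of 18 measured, 2 were at least 2-fold higher in line #3 and none in line #6, beside 2.76% and 1.29% of all genes. By total reads it was 1 in each direction, and none had its whole interval beyond 2-fold. *LAC17* (AT5G60020), a laccase for lignin in fibers, had 46 (Col-0), 165 (line #3) and 80 (line #6) reads, a ratio of 2.199 (1.67 to 2.91). *MYB58* (AT1G16490), an activator of lignin genes, had 9, 16 and 5 reads, a ratio of 3.41 (1.19 to 11.9), and passed the minimum through line #3 alone. The xylan genes *IRX8* (AT5G54690), *FRA8* (AT2G28110) and *PARVUS* (AT1G19300) had log2 ratios of -0.87, -0.75 and -0.80, toward line #6.

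Class counts are read beside the same 2.76% and 1.29% of all genes, and by total reads beside 364 and 422 genes. Cytochrome P450 genes held 10 of 130 at least 2-fold higher in line #3 and none in line #6, and 8 and 3 by total reads, and 8 of the 10 passed the minimum through line #3 alone. Class III peroxidases held 7 of 33 and none, and 5 and none by total reads, and 4 of the 7 passed through line #3 alone. Transposable element genes held 9 of 132 and 2, and 6 and 5 by total reads. Of these, 7 of the 9 passed through line #3 alone and 1 of the 2 through line #6 alone. WRKY genes, with none of 49 and 1, and NAC genes, with 2 of 51 and 1, were close to the shares of all genes, and by total reads NAC genes held 1 and 3.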
